A study of Mus musculus with 10 samples.

Results

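The parathyroid hormone system was followed in the cerebral cortex of mice that lack the deubiquitinase USP7 in glutamatergic neurons. Its 5 genes were taken by symbol from the 55487 genes of the TPM table: the receptors Pth1r and Pth2r and the ligands Pth, Pthlh and Pth2. The 27 exon bins of Pth1r, of 458337 bins in all, were taken as well, because earlier results of the same data had shown Pth1r higher and 1 of its 5′ bins used less. The intron table, with 32135 introns, held 0 introns of any of the 5 genes. The genes were thus selected on the genotype difference in Pth1r level and Pth1r bins, which is given as a description, with no test.

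Parathyroid hormone, encoded by Pth, is made by the parathyroid glands and raises blood calcium by acting on bone and kidney. Parathyroid hormone-related protein, encoded by Pthlh, is a paracrine factor that slows the maturation of cartilage cells and is also made in many other tissues, brain included. Both act through PTH1R, a class B G protein-coupled receptor that signals through cAMP and phospholipase C. PTH2R is its closest relative, and its brain ligand is the peptide TIP39, encoded by Pth2.

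The samples were the cortices of mice aged 18 days, with 5 animals of genotype Usp7 WT; Trp53+/- and 5 of genotype Usp7 cKO; Trp53+/-, called Usp7 WT and Usp7 cKO here. Animals of both groups carried 1 intact copy of Trp53, the gene for p53, a protein that USP7 helps to control through its ubiquitin ligase MDM2. The conditional knockout came from floxed Usp7 and NEX-cre, a Cre driven from the Neurod6 locus in glutamatergic neurons of the forebrain, so other cells of the tissue kept Usp7. Total RNA without ribosomal RNA was sequenced as 1 library per animal, and the labels do not say whether Usp7 WT animals carried Cre. They describe pairs of animals matched for litter and sex without naming the pairs, and the library numbers run through all Usp7 cKO before all Usp7 WT libraries, so library order and genotype cannot be told apart. Each group held 3 labelled females and 2 labelled males, and 2 libraries, Usp7 WT replicate 2 and Usp7 cKO replicate 1, went against their labelled sex by Xist and Ddx3y.

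Library totals of exon bin counts ranged from 42628526 to 51797145. Usp7 itself, the check of the labels, was at 36.9 ± 3.96 TPM in Usp7 cKO against 53.9 ± 5.32 TPM in Usp7 WT (SD, n = 5, log2 change -0.54, limma adjusted p = 0.00131), with no overlap between the groups. Of the 27580 genes tested with limma on log2(TPM + 0.5), 3832 (13.9%) differed at an adjusted p under 0.05, 9.22% higher and 4.67% lower in Usp7 cKO. Markers of cortical glutamatergic neurons were present throughout, and 6 of 9 fell in Usp7 cKO, among them Neurod6 from 52.1 to 24.2 TPM (log2 -1.10, adjusted p = 1.11e-05) and the vesicular glutamate transporter Slc17a7 from 1429 to 1091 TPM (log2 -0.39, adjusted p = 0.000339). Their part in the results below was not tested, and in bulk tissue fewer cells of a type and less RNA per cell cannot be told apart. For Neurod6 an effect of the Cre allele at its own locus cannot be told apart either, as the Cre status of Usp7 WT is not given.

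Pth1r (ENSMUSG00000032492, chromosome 9, 110722085 to 110747145, minus strand, GRCm38) was the most abundant of the 5 genes and the one with the largest difference. Its level in the Usp7 WT libraries, replicates 1 to 5, was 11.2, 9.71, 10.1, 9.49 and 10.3 TPM. In the Usp7 cKO libraries, in the same order, it was 51.7, 51.2, 55.3, 43.9 and 49.4 TPM. The lowest Usp7 cKO library, replicate 4, lay far above the highest Usp7 WT library, replicate 1. Of all genes tested 8.19% had every Usp7 cKO library above every Usp7 WT library and 4.58% below, from which nothing is read here, since Pth1r was chosen for its rise. The means were 10.2 ± 0.657 and 50.3 ± 4.14 TPM (SD, n = 5), a ratio of 4.96 and a log2 change of 2.25 with an SE of 0.0668. Among the 27580 genes this rise ranked 63, and among the 10760 genes averaging at least 10 TPM it ranked 14. The libraries of discordant sex, at 9.71 and 51.7 TPM, lay within the range of their labelled genotype. By labelled sex, Usp7 WT females averaged 10.4 and males 9.80 TPM, and Usp7 cKO females 52.0 and males 47.8 TPM. The difference of the genotype effect between the sexes was -0.04 on the log2 scale (SE 0.147, limma interaction, adjusted p = 1.0).

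Pth2r (ENSMUSG00000025946, chromosome 1, 65282056 to 65389244, plus strand) is found in the brain mainly in subcortical regions. Its level in Usp7 WT replicates 1 to 5 was 3.46, 4.57, 3.83, 3.47 and 3.93 TPM. In Usp7 cKO replicates 1 to 5 it was 2.50, 2.49, 3.49, 1.74 and 3.71 TPM. Usp7 cKO libraries 1, 2 and 4 lay below all Usp7 WT libraries, and the other two lay inside the Usp7 WT range. The means were 3.85 ± 0.452 and 2.79 ± 0.809 TPM (SD, n = 5), a log2 change of -0.44 (SE 0.157, 95% interval -0.78 to -0.09) that missed the threshold in limma (adjusted p = 0.0960). The call depended on the scale, since Pth2r passed after rescaling of TPM by median-of-ratios size factors (log2 -0.49, adjusted p = 0.0389) and on summed bin counts in edgeR (log2 -0.48, adjusted p = 0.0345) and DESeq2 (log2 -0.49, adjusted p = 0.0223). Over all 21 alternatives its adjusted p ran from 0.0223 to 0.226, with a negative change in each.

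Pthlh (ENSMUSG00000048776, chromosome 6, 147252101 to 147264183, minus strand) was the one ligand of PTH1R with measurable transcript. It was 5.86, 5.87, 4.35, 4.42 and 6.44 TPM in Usp7 WT replicates 1 to 5. It was 5.75, 3.82, 5.45, 5.31 and 4.34 TPM in Usp7 cKO replicates 1 to 5, so the groups overlapped. The means of 5.39 ± 0.946 and 4.93 ± 0.816 TPM (SD, n = 5) did not differ beyond the spread (log2 -0.11, SE 0.151, 95% interval -0.45 to 0.22, limma adjusted p = 0.672). By labelled sex, the 3 Usp7 WT females lay above both males, and both Usp7 cKO males lay above 2 of the 3 females. The genotype effect differed between the labelled sexes by 0.70 on the log2 scale (SE 0.235), with an adjusted p = 1.0 for the limma interaction over 27580 genes. With sex read from Xist and Ddx3y in place of the label, a setting added after the data were seen, that difference was 0.45 (SE 0.325, limma adjusted p = 1.0).

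Pth2 (ENSMUSG00000038300, chromosome 7, 45180995 to 45181838, plus strand) was near the limit of detection, with 0 to 14 reads per library over its bins. Its level was 0.468, 0.514, 0.285, 0.337 and 1.58 TPM in Usp7 WT replicates 1 to 5, and 0, 0.954, 1.84, 0.809 and 0.177 TPM in Usp7 cKO replicates 1 to 5. No difference was detectable at this depth (log2 0.03, SE 0.393, 95% interval -0.84 to 0.91, limma adjusted p = 0.967), and the sign of the change turned under 7 of 18 alternatives. Pth (ENSMUSG00000059077, chromosome 7, 113385580 to 113388570, minus strand) was listed at 0 TPM in all 10 libraries. Its 3 bins held 0 reads in all of them, which allows up to 0.0579 to 0.0704 CPM in a library, that is 3 counts of its total (CPM scales a library's bin counts to a fixed total). This limit covers counting error only.

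Apart from Pth1r, then, 0 of the 3 other genes that could be tested were called in limma, where 13.9% of all genes were called (9.22% higher and 4.67% lower). At an unadjusted p under 0.05, and in edgeR and DESeq2 on 2 of them, 1 gene was lower, Pth2r. Of all 23012 genes in those fits, edgeR called 3201 lower and DESeq2 3429. TPM are scaled by gene length, so the levels can be ordered within a library. The order was Pth1r, Pthlh, Pth2r and Pth2 in 5 of 5 Usp7 WT and 5 of 5 Usp7 cKO libraries. Pth1r exceeded Pthlh 1.59 to 2.32 times in Usp7 WT and 8.28 to 13.4 times in Usp7 cKO. Pthlh exceeded Pth2r by less, 1.14 to 1.70 times in Usp7 WT and 1.17 to 3.06 times in Usp7 cKO, and the ranges of these neighbours overlapped in Usp7 WT but not in Usp7 cKO.

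**Figure D1:**
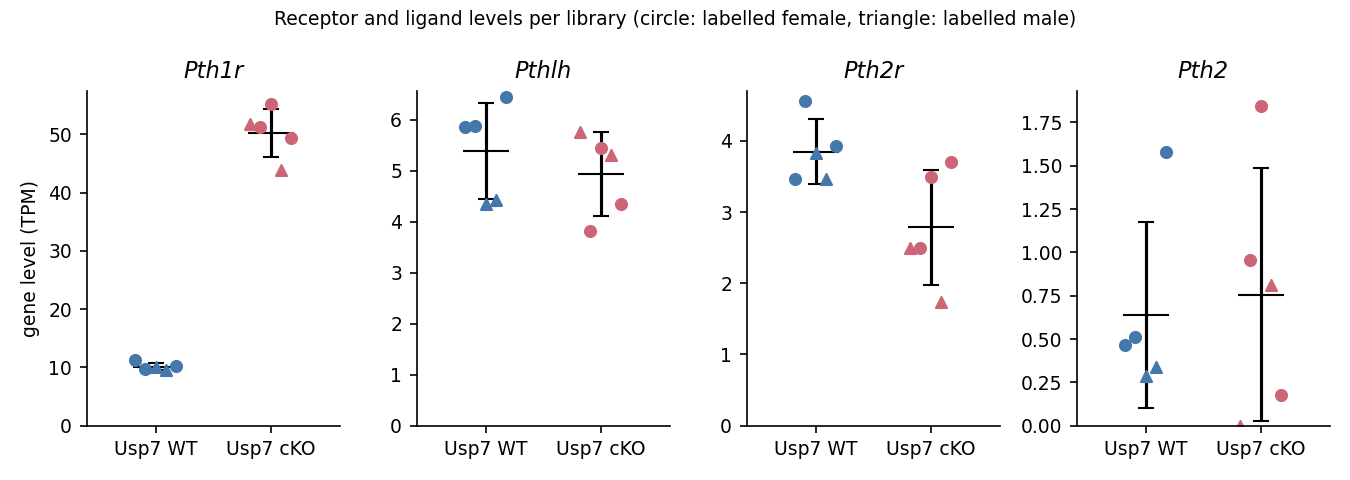
Level of Pth1r, Pthlh, Pth2r and Pth2 in TPM (vertical axes, each starting at 0) in the 5 Usp7 WT (blue) and 5 Usp7 cKO (red) libraries, with circles for labelled females, triangles for labelled males, and bars for the mean ± SD. Pth1r separates the groups, at 9.49 to 11.2 against 43.9 to 55.3 TPM, and the other 3 genes overlap.

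The reads of Pth1r were then followed along the gene. The annotation (GENCODE release for GRCm38) gives 6 Pth1r transcripts that begin at 3 places, called the upstream, middle and downstream start here. Pth1r-201 begins at the downstream start, and its first exon is made of bins E021 and E020 without a gap. E021 (chr9:110742346-110742719, 374 bp) is the untranslated 5′ part of that exon and belongs to Pth1r-201 alone, and it is intronic in the transcripts of the other starts. E020 (chr9:110742226-110742345) is in 5 of the 6 transcripts, holds the first coding bases of each of those, and is a later exon in the ones from the other starts. Bins E022 and E023 (chr9:110743455-110743686) are the first exon of the middle start, of Pth1r-202 and Pth1r-203. Bins E024 to E027 (chr9:110744731-110747145) are the first and second exons of the upstream start, of Pth1r-204, Pth1r-205 and Pth1r-206. The sequences just before the 3 annotated starts are shown because the bins differed by start. They are from RefSeq promoter windows (GRCm38.p6, minus strand, 5′ to 3′), with the GC box GGGCGG or its reverse complement CCGCCC in capitals.
Pth1r upstream start, chr9:110747146-110747395: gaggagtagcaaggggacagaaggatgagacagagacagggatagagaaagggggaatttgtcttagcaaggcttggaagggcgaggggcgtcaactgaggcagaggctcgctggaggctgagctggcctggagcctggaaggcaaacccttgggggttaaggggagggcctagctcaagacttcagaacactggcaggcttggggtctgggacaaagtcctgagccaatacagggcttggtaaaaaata
Pth1r middle start, chr9:110743687-110743936: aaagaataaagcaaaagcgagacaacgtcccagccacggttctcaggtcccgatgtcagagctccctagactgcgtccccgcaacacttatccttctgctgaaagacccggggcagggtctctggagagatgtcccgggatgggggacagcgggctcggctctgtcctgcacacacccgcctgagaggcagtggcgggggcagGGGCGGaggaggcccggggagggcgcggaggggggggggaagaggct
Pth1r downstream start, chr9:110742720-110742860: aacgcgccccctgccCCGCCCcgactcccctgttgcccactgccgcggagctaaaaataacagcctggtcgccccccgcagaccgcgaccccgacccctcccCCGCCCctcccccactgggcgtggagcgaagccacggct
The RefSeq start of the downstream transcript lies inside E021, and its window is printed only as far as the annotated start of Pth1r-201.

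The 3 windows differed in composition. Over the 250 bases before each RefSeq start, GC content was 56.0% for the upstream, 65.6% for the middle and 70.4% for the downstream start, against a median of 52.4% over 32851 windows. The ratio of observed to expected CpG was 0.180, 0.613 and 0.713 in the same order, against a median of 0.374. The GC box, on both strands, had 0, 1 and 4 matches, and 32.7% of all windows hold at least 1. Of the 4 for the downstream start, 2 lie in the printed part and the rest inside bin E021. TATAAA and TGACGTCA, also on both strands, had 0 matches in all 3 windows and occur in 12.4% and 1.55% of all windows. CCAAT had 1 match, in the upstream window, and occurs in 33.9% of all windows. No motif searched contains another, and a match is no evidence of a bound factor. Of the other genes, the Pthlh window was 75.2% GC with 4 GC boxes, while those of Pth2r and Pth were 52.8% and 39.2% GC with 0.

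The rise of Pth1r ran through its shared exons, and much less through E021, the 5′ part of the first exon of Pth1r-201. Over the 17 shared bins (E003 to E018 and E020, 1933 bp) counts averaged 8.02 ± 0.825 CPM (SD, n = 5) in Usp7 WT and 49.1 ± 2.11 CPM in Usp7 cKO, a ratio of 6.12. Single shared bins rose 4.93 to 6.98 times, with a median of 6.13, and in 17 of 17 the lowest Usp7 cKO count lay above the highest Usp7 WT count. Such a separation held for 3.72% of all 228098 bins in the usage model, but the gene was chosen for this rise, so nothing is read from the count. Bin E021 held 47, 63, 39, 56 and 30 reads in Usp7 WT replicates 1 to 5 and 49, 72, 95, 72 and 65 in Usp7 cKO replicates 1 to 5. Scaled to depth these are 0.954 ± 0.237 and 1.51 ± 0.352 CPM (SD, n = 5), a ratio of 1.58, and the groups overlapped, at 0.656 to 1.24 against 1.15 to 2.08 CPM. In E020, the next bin of the same exon, reads numbered 14, 15, 15, 14 and 12 in Usp7 WT and 80, 89, 85, 92 and 96 in Usp7 cKO, a ratio of 6.62 in CPM with no overlap.

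E021 thus took a smaller share of the gene's reads in Usp7 cKO. The share of E021 in all Pth1r bin counts was 10.5 ± 2.67% (SD, n = 5) in Usp7 WT and 2.94 ± 0.656% in Usp7 cKO, with ranges of 8.07 to 14.5% and 2.16 to 3.95%. The relative log2 change, that of the bin minus that of its gene in edgeR, was -1.85 for E021 and between -0.20 and 0.31 for the 17 shared bins. The authors' deposited table gives -1.90 for E021. Per kilobase, E021 had 0.620 ± 0.177 times the density of the shared exons in Usp7 WT (range 0.460 to 0.880) and 0.159 ± 0.0365 times in Usp7 cKO (range 0.116 to 0.216). The libraries of discordant sex were the highest of the Usp7 WT and the lowest of the Usp7 cKO libraries in this ratio. Without both, E021 had a relative log2 change of -1.61 and a CPM ratio of 1.81, and the shared exons a CPM ratio of 5.92.

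**Figure D2:**
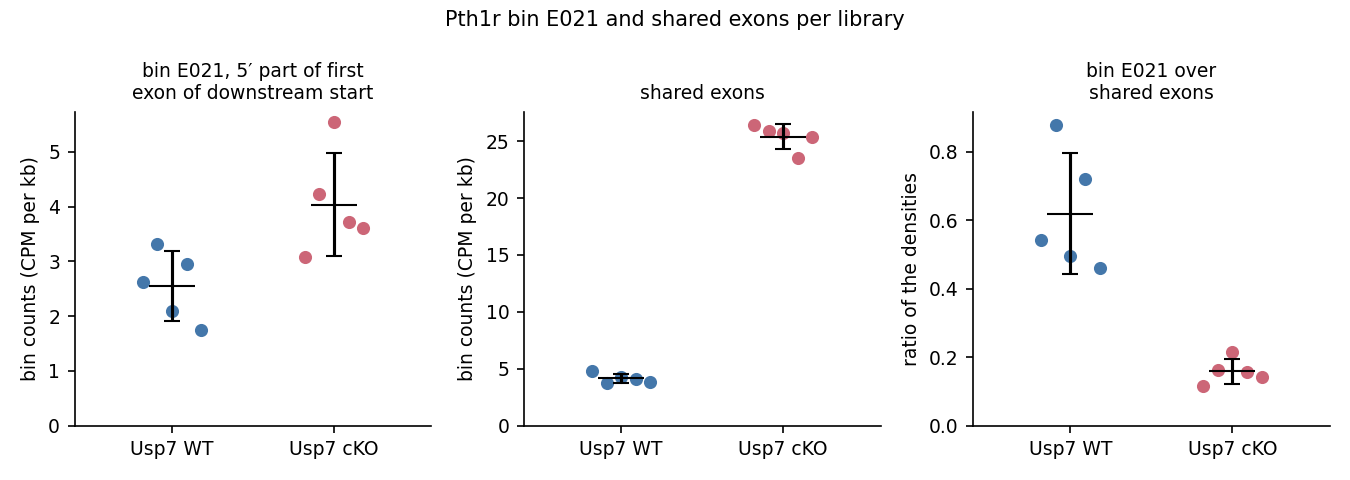
Density of reads in CPM per kb in bin E021, the 5′ part of the first exon of Pth1r-201 (left), and in the 17 shared exon bins (middle), and the ratio of both (right), per library, with bars for the mean ± SD of 5 libraries. The shared exons separate the groups at 4.15 against 25.4 CPM per kb, E021 overlaps at 2.55 against 4.03, and the ratio falls from 0.620 to 0.159.

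The other 2 starts had few reads. The middle start held 9 reads in all over the 5 Usp7 WT libraries, 0 to 3 in each, and 65 over the Usp7 cKO libraries, 9 to 17 in each, with no overlap. Its mean of 0.0372 CPM in Usp7 WT and 0.277 CPM in Usp7 cKO gives a ratio of 7.45, from counts too few to set it apart from the 6.12 of the shared exons. Relative to the density of the shared exons it was 0.0382 ± 0.0221 (SD, n = 5) in Usp7 WT and 0.0473 ± 0.0112 in Usp7 cKO, ranges that overlapped. The upstream start held 5 reads over the Usp7 WT libraries, 4 of them in replicate 4, and 16 over the Usp7 cKO libraries, 2 to 7 in each. In Usp7 cKO E020 had a density of 15.8 ± 0.705 CPM per kb, against 4.03 ± 0.941 for E021, 1.19 ± 0.261 for the middle and 0.300 ± 0.226 for the upstream start. In Usp7 WT the values were 2.38 ± 0.134, 2.55 ± 0.633, 0.160 ± 0.0984 and 0.0843 ± 0.146 CPM per kb. The density of E020 was thus close to that of E021 in Usp7 WT and above that of E021 and of the bins of the other starts in Usp7 cKO. The table held no Pth1r intron, so reads that join E020 to another start were not analysed here. Bins at the end of a transcript receive fewer reads than those inside it, and which base of E021 transcripts begin at was not measured.

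**Figure D3:**
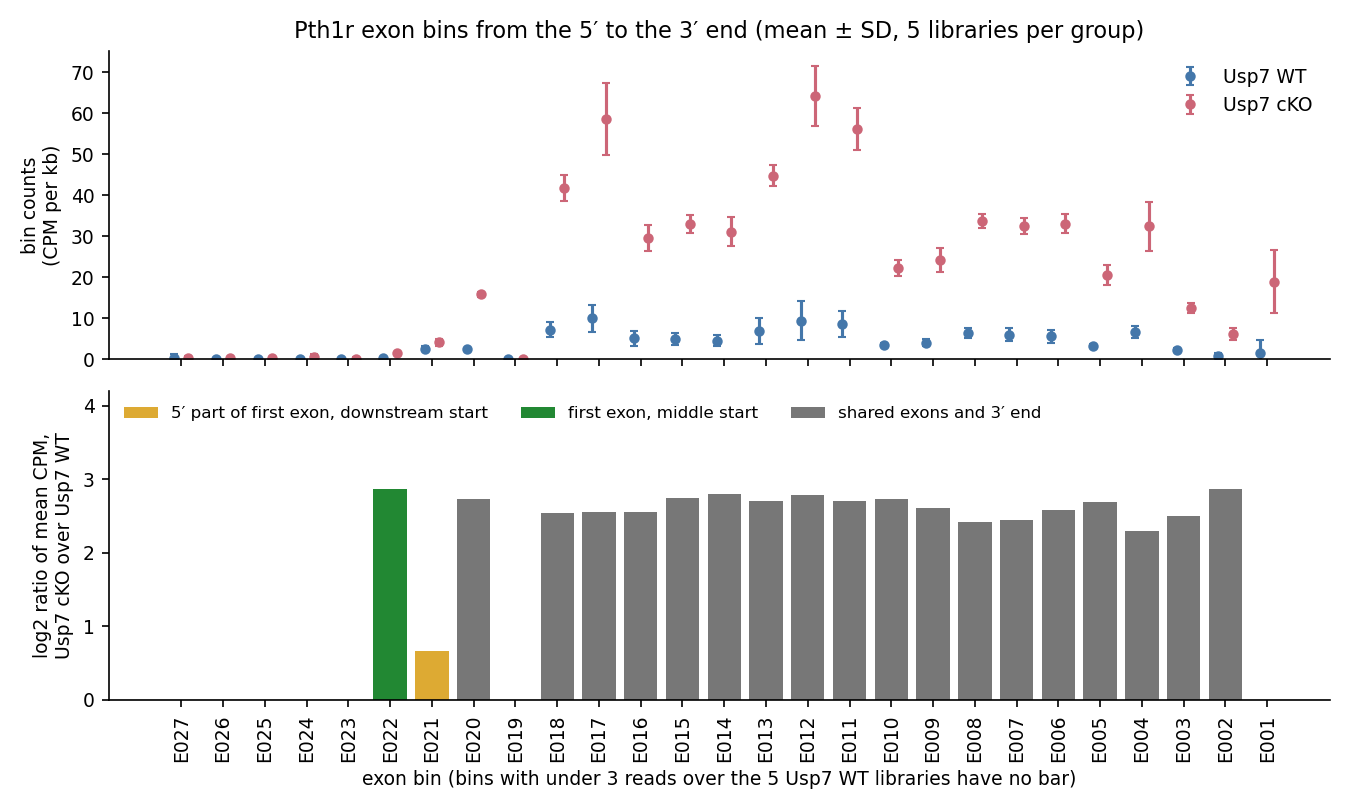
Reads in the 27 exon bins of Pth1r from the 5′ end (left) to the 3′ end (right). The upper panel gives CPM per kb (mean ± SD, 5 libraries per group) and the lower panel the log2 ratio of mean CPM for bins with at least 3 reads in Usp7 WT, where E021 stands at 0.66 and the shared bins between 2.30 and 2.80.

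Bin E019, an exon of Pth1r-205, overlaps the first exon of Myl3 on the plus strand (110741861 to 110742038), held 0 reads in all 10 libraries and was the one Pth1r bin that overlapped an annotated exon of another gene. Exon usage of the ligand and the second receptor gave no call. Pth2r had 3 of its 15 bins in the edgeR usage model, with relative log2 changes of -0.12 to 0.22 (Simes adjusted p = 1.0), and Pthlh 3 of 7 bins, with -0.13 to 0.14 (Simes adjusted p = 1.0). Of all 13954 genes in this model 2.85% were called. Pth and Pth2 had 0 bins with enough reads.

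The genes around Pth1r were examined for the same difference. Of 12 annotated neighbours within 100 kb, 8 passed the filter on low values and were tested, and 2 rose and 0 fell. These counts are too small to be set against the 9.22% and 4.67% of all genes. The filter fixed the direction of Myl3, 1 of the 2. Counts were the same at an unadjusted p under 0.05 and, of 6 genes tested there, in edgeR and DESeq2. Those fits called 3228 and 3170 of all 23012 genes higher. Nbeal2, a BEACH domain protein needed for platelet granules in humans and mice, rose from 5.56 ± 0.860 to 10.01 ± 2.38 TPM (SD, n = 5, limma adjusted p = 0.00759, log2 change 0.78 with an SE of 0.151), and its groups did not overlap. Myl3, a myosin light chain of slow and cardiac muscle that overlaps Pth1r on the other strand, was 0.152 ± 0.0945 and 0.931 ± 0.295 TPM (log2 1.12, adjusted p = 0.00678). The Usp7 cKO libraries alone carried it past the filter of 0.5 TPM, which fixed its direction, and without a stated counting strand its reads and those of Pth1r cannot be told apart where the genes overlap. Ccdc12, the nearest gene that does not overlap Pth1r and the one tested neighbour with a negative change, was 17.6 ± 2.34 and 17.2 ± 2.92 TPM (log2 change -0.04, 95% interval -0.28 to 0.20, adjusted p = 0.837). The 5 remaining neighbours tested (Nradd, Prss45, Gm35715, Gm42470 and Mir8107) had log2 changes of 0.19 to 0.67 and limma adjusted p-values of 0.410 to 0.628. Of these, Mir8107, at 0.442 and 1.04 TPM, also passed the filter through Usp7 cKO alone, which fixed its direction.

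Several receptors of the same class were higher too. Of 13 other class B receptors, which bind peptide hormones and mostly signal through cAMP, 10 could be tested, and 5 rose and 1 fell, against 9.22% and 4.67% of all genes. The median log2 change of the 10 was 0.39, against 0.06 over all genes tested. Crhr2, a receptor of corticotropin-releasing hormone and urocortins, rose from 1.06 ± 0.234 to 4.42 ± 0.973 TPM (SD, n = 5, limma adjusted p = 0.000272, log2 change 1.64 with an SE of 0.180). Glp1r, the receptor of glucagon-like peptide 1, rose from 1.18 ± 0.367 to 3.68 ± 0.543 TPM (adjusted p = 0.000703, log2 1.33 with an SE of 0.170). Vipr2, a receptor of the peptides VIP and PACAP, rose from 0.664 to 1.67 TPM (log2 0.90, adjusted p = 0.00131). The PACAP receptor Adcyap1r1, by far the most abundant of the rising receptors, rose from 104.7 to 134.5 TPM (log2 0.36, adjusted p = 0.00261). Gipr, the receptor of the gut peptide GIP, rose from 1.71 to 2.85 TPM (log2 0.61, adjusted p = 0.0468), which missed the threshold when any 1 of 9 libraries was left out (adjusted p up to 0.115) or both libraries of discordant sex (0.122). The call of Gipr was lost in 14 of 21 alternatives, with the highest limma adjusted p under sex from Xist and Ddx3y (0.268). The one that fell, Glp2r, the receptor of glucagon-like peptide 2, went from 6.47 to 3.80 TPM (log2 -0.69, adjusted p = 0.00132). The groups of Crhr2, Glp1r, Vipr2, Adcyap1r1 and Glp2r did not overlap. Of all genes tested 8.19% had every Usp7 cKO library above every Usp7 WT library and 4.58% below. Over all 21 alternatives the list held 4 to 6 rises and 1 fall. It held 6 rises in edgeR and in DESeq2, where 3228 and 3170 of all 23012 genes rose.

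**Figure D4:**
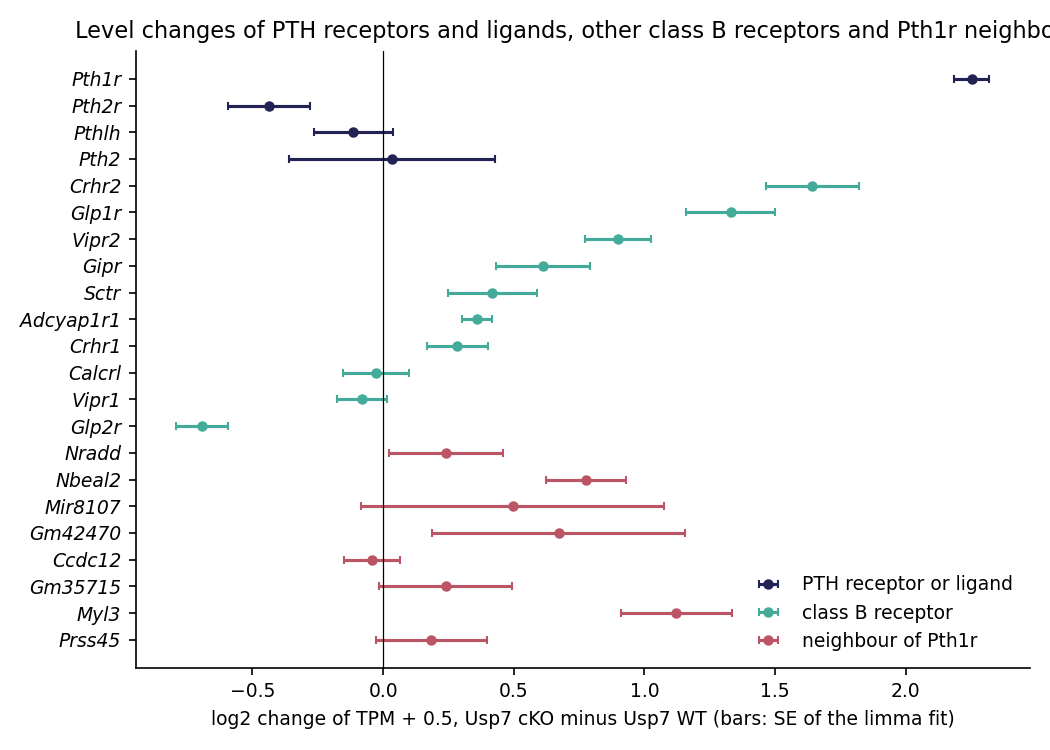
Log2 change of TPM + 0.5, Usp7 cKO minus Usp7 WT, with the SE of the limma fit as bars, for the PTH receptors and ligands (dark), the other class B receptors tested (green) and the tested genes within 100 kb of Pth1r (red). Pth1r lies at 2.25, above the class B receptor with the largest rise, Crhr2, at 1.64, and its neighbour Ccdc12 lies at -0.04.

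Few ligands of these receptors could be tested. Of 15 ligand genes 7 passed the filter on low values, and 1 rose and 1 fell, counts too small to be set against the 9.22% and 4.67% of all genes or against those of the receptors. Adcyap1, the precursor of PACAP, fell from 18.4 ± 1.43 to 10.4 ± 1.51 TPM (SD, n = 5; log2 -0.80, limma adjusted p = 0.000158). Calca, which encodes calcitonin and the peptide CGRP, rose from 1.43 to 2.64 TPM (log2 0.69, adjusted p = 0.0201), which missed the threshold when Usp7 WT replicate 1 (adjusted p = 0.0522), replicate 4 (0.0501) or both libraries of discordant sex (0.0760) were left out. Adm, the precursor of adrenomedullin, was 2.82 and 1.88 TPM (log2 -0.52, adjusted p = 0.134), and Ghrh, the precursor of growth hormone-releasing hormone, 0.419 and 0.699 TPM (log2 0.41, adjusted p = 0.282). Ghrh passed the filter through Usp7 cKO alone, which fixed its direction. Adm passed the threshold without Usp7 cKO replicate 3 (log2 -0.70, adjusted p = 0.0199) and in edgeR (0.0170) and DESeq2 (0.0131).

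Downstream of the receptor, the called genes included rises and falls. Of 39 genes for G proteins, cAMP and phospholipase C, 39 were tested, and 6 rose and 3 fell, against 9.22% and 4.67% of all genes. Their median log2 change was 0.00, against 0.06 over all genes tested. Adcy7, an adenylyl cyclase that makes cAMP and is best known from immune cells, rose from 6.38 ± 0.782 to 24.7 ± 2.75 TPM (SD, n = 5, limma adjusted p = 5.38e-07, log2 change 1.87 with an SE of 0.0785). Pde4c, a phosphodiesterase that breaks down cAMP, rose from 1.02 ± 0.206 to 4.89 ± 2.34 TPM (log2 1.74, adjusted p = 0.000840), and the phospholipase Plcb2 from 2.19 to 3.66 TPM (log2 0.63, adjusted p = 0.00529). Prkar1b, a regulatory subunit of the cAMP-dependent kinase, fell from 570 to 464 TPM (log2 -0.30, adjusted p = 0.000832). Gnas, the G protein that couples PTH1R to cAMP, was 31.6 ± 2.09 and 32.3 ± 1.06 TPM (adjusted p = 0.742, log2 0.03 with an SE of 0.0573), and Gnaq, which couples it to phospholipase C, 130 ± 6.18 and 122 ± 3.49 TPM (log2 -0.09, adjusted p = 0.160). Both were singled out after their values were seen. Rescaling raised the number that fell to 9, and summed bin counts to 12 in edgeR and in DESeq2. The falls over all genes also grew, from 1288 of 27580 in the main fit to 3005 of 27535 after rescaling. They were 3201 of 23012 in edgeR and 3429 of 23012 in DESeq2. Without 1 library the list held 3 to 7 rises and 2 to 5 falls, and without both libraries of discordant sex 3 rises.

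Proteins that bind such receptors or carry them through the cell were examined next. Of 15 partner and trafficking genes tested, 4 rose and 2 fell, against 9.22% and 4.67% of all genes, with a median log2 change of 0.01 against 0.06. Grk3, a kinase that marks active receptors for arrestin, rose from 51.3 to 70.7 TPM (log2 0.46, limma adjusted p = 0.00310), while its relative Grk2 fell from 204 to 179 TPM (log2 -0.19, adjusted p = 0.0207). The arrestin Arrb2 rose from 46.8 to 57.4 TPM (log2 0.29, adjusted p = 0.00862) and Ramp2, which pairs with several class B receptors, from 11.1 to 16.0 TPM (log2 0.50, adjusted p = 0.0116). Grk2 missed the threshold when Usp7 WT replicate 2 was left out (adjusted p = 0.0526), as with Usp7 cKO replicate 4 (0.0607) or 5 (0.0550). Without both libraries of discordant sex the calls of Grk2 (0.0880), Arrb2 (0.0558) and Ramp2 (0.0735) were lost, leaving 1 rise and 0 falls on the list. Without 1 library the list held 3 to 4 rises and 0 to 2 falls.

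Genes of the parathyroid gland and of calcium balance were mostly low in cortex. Of 16 such genes 10 were tested, and 3 rose and 2 fell, against 9.22% and 4.67% of all genes, with a median log2 change of 0.52 against 0.06. This median includes the uncalled Slc34a1, at 0.174 TPM in Usp7 WT and 2.80 ± 5.70 TPM (SD) in Usp7 cKO. Usp7 cKO alone carried Slc34a1 past the filter on low values, which fixed its direction. Tbx1, a transcription factor of the embryonic pharynx from which the parathyroids arise, rose from 1.13 ± 0.859 to 5.02 ± 1.27 TPM (SD, n = 5, limma adjusted p = 0.00206, log2 change 1.86 with an SE of 0.286). Casr, the calcium-sensing receptor that controls hormone release in the gland, rose from 5.58 to 7.90 TPM (log2 0.46, adjusted p = 0.0245), a call lost in 7 of the 10 fits that each left out 1 library (adjusted p up to 0.0676) and without both libraries of discordant sex (0.108). The calcium channel Trpv6 fell from 17.04 ± 2.02 to 9.26 ± 1.55 TPM (log2 -0.85, adjusted p = 0.000745) and the calcium buffer Calb1 from 46.0 ± 4.62 to 27.6 ± 3.46 TPM (log2 -0.73, adjusted p = 0.0010). Gcm2, the factor that specifies the parathyroid gland, was at 0.0146 and 0.0143 TPM and was singled out after its values were seen. Without 1 library the list held 1 to 4 rises and 2 falls.

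Markers of cell types that the dissected tissue could hold were set beside the rise of Pth1r. Of all genes tested in limma 9.22% were called higher and 4.67% lower, and these lists are too short to be set against those shares. Of 12 mural cell markers 0 were called in limma (2 rose at an unadjusted p under 0.05, and edgeR and DESeq2 each called 1 higher and 1 lower), and their summed level was 154 to 197 TPM in Usp7 WT and 167 to 226 TPM in Usp7 cKO. The same count of 0 was found for 9 endothelial markers (127 to 186 and 133 to 211 TPM), 9 markers of meningeal and perivascular fibroblasts (51.5 to 90.4 and 58.1 to 88.2 TPM) and 7 striatal markers (266 to 577 and 183 to 775 TPM), with 0 of each list at an unadjusted p under 0.05 and 0 in edgeR and DESeq2. Choroid plexus markers, 6 of 7 tested with 0 called in limma (1 higher at an unadjusted p under 0.05, 0 in edgeR and 1 higher in DESeq2), varied most, at 33.1 to 898 and 24.6 to 447 TPM. Of 6 thalamic markers tested, 2 rose, Prkcd from 7.42 to 15.7 TPM (log2 1.03, adjusted p = 0.000118) and Calb2 from 20.2 to 31.3 TPM (log2 0.62, adjusted p = 0.000148). The rest of the tested thalamic markers were not called (limma adjusted p = 0.284 to 0.905), among them Slc17a6 at 12.0 and 12.3 TPM. The summed level, with Prkcd and Calb2 included, was 69.9 to 76.9 and 91.2 to 107 TPM. Of 11 markers of Pvalb interneurons 1 fell, Pvalb itself, from 56.5 to 36.6 TPM (log2 -0.67, adjusted p = 0.0489, a call lost in 12 of 21 alternatives). No marker of these lists was at 0 in every library, and the part of these cell types in the Pth1r result was not tested.

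The genes whose levels tracked Pth1r most closely across the 10 libraries were read off among 14737 genes. With the genotype means kept, the highest Pearson r was 0.998 for Cilp2, Ret and Nkd2 and 0.997 for Scarf2 and Krt87. All were higher in Usp7 cKO, such as Scarf2 at 6.49 and 58.5 TPM. So high an r with Pth1r fixed this direction in advance. Krt87, at 0.316 and 4.27 TPM, also passed the filter on low values through Usp7 cKO alone. After each library's deviation from its genotype mean was taken, the highest r was 0.961 for Slc19a1, followed by Ift57 at 0.953, Bicc1 at 0.951 and Trpv2 and Eef1d at 0.949. The 2 sets shared no gene. These are descriptions over 10 libraries that share genotype and scaling, with no test, and the choice among many genes favours high values.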

How the data were processed

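Total RNA of cerebral cortex was sequenced after ribosomal RNA removal with RNase H and random priming, per the labels' protocols. The deposited gene levels are TPM, per the file headers. Exon bin values are raw counts of DEXSeq bins and intron values raw counts of spliced reads, per the deposited file headers. The bin table also holds the authors' log2 change of exon usage and an adjusted p-value, per the file headers. GRCm38 and the tools SAMtools 1.10, STAR 2.7.9a, featureCounts and Subread are named in the submitters' processing notes. The sources used here give neither the counting strand nor the gene lengths.

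For genes averaging at least 0.5 TPM, log2(TPM + 0.5) was fitted in limma 3.58.1 (R 4.3.3) with labelled sex as covariate and with the trend and robust options. This scale understates changes of low genes. P-values were two-sided and adjusted by Benjamini-Hochberg over all genes at a threshold of 0.05. Exon usage was tested with edgeR 4.0.16 (glmQLFit and diffSpliceDGE, TMM) on bins with a mean count of at least 10 in genes with at least 2 such bins. Both were tested on simulated data. CPM are bin counts scaled by a library's bin total. Alternatives included other pseudocounts, filters, scaling, covariates, left-out libraries and a replicate block, and edgeR and DESeq2 1.42.0 on bin counts summed per gene. Promoter windows were from RefSeq (5 of 5 genes matched), gene models from GENCODE. The 5 genes, the lists and the rule for named genes (up to 4 genes of each list with the smallest p, genes within 100 kb of Pth1r, and the 5 genes most correlated with Pth1r by each measure) were chosen with earlier results of these data known. Other genes named are called class B receptors, called markers, 1 uncalled thalamic marker, 1 uncalled gene carried past the filter by Usp7 cKO alone, and genes said to be singled out. Python 3.11.15 with pandas 2.3.3, numpy 2.4.6 and matplotlib 3.10.9 made the tables and plots.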

Additional observations from a re-analysis of the deposited data

Results flagged for a closer look

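Groups of 5 libraries were examined for most of the genes named here. In 7 of 102 such groups 1 library stood apart, with a gap to its nearest neighbour above 0.71 of the group's range, Dixon's 95% critical value. Chance gives such a library in about 1 of 20 groups. Pth2 in Usp7 WT replicate 5 was 1.58 TPM, against 0.285 to 0.514 TPM in the others. Crhr2 in Usp7 WT replicate 1 was 0.659 TPM, against 1.08 to 1.23 TPM. Ghrh in Usp7 cKO replicate 4 was 0.405 TPM, against 0.712 to 0.819 TPM, and Calca in Usp7 cKO replicate 5 was 3.75 TPM, against 2.15 to 2.50 TPM. Trpv6 in Usp7 cKO replicate 3 was 12.0 TPM, against 8.21 to 9.15 TPM. Pam, an enzyme that amidates peptide hormones, was 67.0 TPM in Usp7 WT replicate 2, against 72.2 to 73.4 TPM. Calb2, listed here with the thalamic markers, was 35.0 TPM in Usp7 cKO replicate 5, against 29.9 to 31.0 TPM.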

How the results depend on the processing

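The log2 change of Pth1r was 2.18 to 2.42 over 21 alternatives and moved past the spread between libraries only on summed bin counts, at 2.42 in edgeR and 2.41 in DESeq2. Pth2r passed the threshold in 3 alternatives (log2 -0.49 after rescaling, -0.48 in edgeR and -0.49 in DESeq2). Pthlh kept its sign and missed the threshold in all 21 (log2 -0.20 to -0.02). Pth2 turned negative at a pseudocount of 0.1 (-0.19), with sex from Xist and Ddx3y (-0.0805) and without 1 of 5 libraries, in a range of -0.20 to 0.29. It could not be fitted in edgeR, DESeq2 or with a minimum of 1 TPM. Of uncalled neighbours of Pth1r, Gm35715 turned to -0.0133 without both libraries of discordant sex, and Ccdc12 turned positive without Usp7 WT replicate 3 or Usp7 cKO replicate 4, in a range of -0.110 to 0.0314 without 1 library. The causes were not tested. The number of genes called was 3832 (66.4% higher), and 5648 after rescaling (46.8% higher), 6429 in edgeR (50.2%) and 6599 in DESeq2 (48.0%). It was 3018 with sex from Xist and Ddx3y (56.7%), 2183 without both libraries of discordant sex (60.2%), and 2789 to 3586 without 1 library. Genes called for exon usage numbered 397, 215 without both libraries of discordant sex and 239 to 368 without 1 library, with the fewest without Usp7 cKO replicate 5 (239) and Usp7 WT replicates 1 (246) and 2 (257). The relative change of Pth1r bin E021 stayed at -1.96 to -1.61. A replicate block on the number in the sample titles gave 3654 genes, 427 for exon usage, and changed the call of none of Pth2r, Pthlh and Pth2. Deviations of samples with the same number correlated at -0.011 to 0.116, above 0 in 8 of 9 pairs, and those with different numbers at -0.123 to 0.043, above 0 in 3 of 16. Of 10 samples 9 correlated best with one of their own number, and each number held the same labelled sexes in both groups. Both are hints, since the labels do not name the pairs. As not every pair exceeded 0.1 the numbers were not taken as pairs, so the main fits hold no term for the matching by litter. Among the genes named, Gipr (adjusted p = 0.0535) and Pvalb (0.0804) missed the threshold under the block. Intron fits and their alternatives were not run, because the table held no intron of these genes. Depth limits Pth2 and the 2 upstream Pth1r starts.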

Other observations

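Enzymes that cut and finish peptide hormones were examined as well. Of 10 prohormone processing genes tested, 2 rose and 3 fell, against 9.22% and 4.67% of all genes, and their median log2 change was 0.06, as over all genes. Pcsk1, a convertase of secretory granules, fell from 30.2 ± 1.24 to 25.3 ± 2.08 TPM (SD, n = 5; log2 -0.25, limma adjusted p = 0.0149), Pam from 71.6 to 62.8 TPM (log2 -0.19, adjusted p = 0.0168) and the granule protein Pcsk1n from 908 to 796 TPM (log2 -0.19, adjusted p = 0.0180). Pcsk6, a convertase of the cell surface, rose from 10.2 to 14.3 TPM (log2 0.47, adjusted p = 0.0199). With both libraries of discordant sex left out, Pcsk1 (adjusted p = 0.0578), Pcsk1n (0.0578) and Pcsk6 (0.103) missed the threshold, leaving 0 rises and 1 fall. Pcsk1 also missed the threshold with sex from Xist and Ddx3y (limma adjusted p = 0.0652). With 1 library left out, Pam missed it for Usp7 WT replicate 1 (0.0515), Pcsk6 for Usp7 WT replicate 1 (0.0542) and Usp7 cKO replicate 5 (0.0540), and Pcsk1n for Usp7 cKO replicate 1 (0.0507). Without 1 library the list held 0 to 2 rises and 2 to 4 falls.

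A further list held genes known as targets of PTH and PTHrP in bone and cartilage. Of 21 such genes 17 were tested, and 4 rose and 2 fell, against 9.22% and 4.67% of all genes, with a median log2 change of 0.16 against 0.06. Of the 4 rises, 1 was also counted among the 3 rises of the parathyroid and calcium list. Ihh, the hedgehog ligand that forms a feedback loop with PTHrP in growth plates, rose from 3.60 ± 0.558 to 6.90 ± 1.43 TPM (SD, n = 5; log2 0.84, limma adjusted p = 0.00476), and Gli1, a hedgehog target, from 1.44 to 2.54 TPM (log2 0.64, adjusted p = 0.0123). Sox9, a transcription factor of cartilage that astrocytes also express, rose from 27.9 to 35.0 TPM (log2 0.32, adjusted p = 0.0188). Mef2c, a transcription factor of cartilage and of neurons, fell from 188 to 141 TPM (log2 -0.42, adjusted p = 0.00206). Sox9 missed the threshold when Usp7 WT replicate 1 was left out (adjusted p = 0.0522), as with Usp7 cKO replicate 1 (0.0512) or 5 (0.0508). It also missed the threshold with sex from Xist and Ddx3y (limma adjusted p = 0.053). With both libraries of discordant sex left out, Sox9 (0.113) and Gli1 (0.0525) missed it, leaving 1 rise and 1 fall. Without 1 library the list held 2 to 4 rises and 1 to 2 falls.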
